A study of Drosophila melanogaster with 4 samples.

Results

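The genes described here were the 39 DNA replication and E2F genes of a list fixed by symbol, of which 38 had a row among the 13012 genes of the deposited table. The rule used the symbols alone, with no threshold on a measured value. The list was chosen with earlier results of these data known, so its counts beside those of all genes are a description only. The unmatched symbol was lat, which encodes the origin recognition subunit Orc3, and it was not analysed here. Thoraces of mated female *Drosophila* were dissected for RNA-seq after the flies had been kept on a high calorie diet, to see how loss of the muscle transcription factor MEF2 changed gene expression in adult muscle. The 4 conditions were Act88FGS>UAS-MEF2 RNAi +RU486, Act88FGS>UAS-MEF2 RNAi -RU486, Act88FGS>w1118 +RU486 and Act88FGS>w1118 -RU486, with the age of all 4 labelled as 10 days, 8 thoraces pooled per library and 1 library per condition. All flies carried Act88F GeneSwitch, a GAL4 fusion expressed from a flight muscle actin promoter that drives UAS transgenes when the steroid RU486 is fed. The -RU486 flies received the ethanol vehicle, and the w1118 flies carried the driver with no RNAi transgene. Several limits come with this model: a thorax also holds gut, nerve, fat body and hemocytes besides muscle, the promoter of the driver is that of a flight muscle gene, and which MEF2 RNAi stock was sequenced is not given in the sources used here.

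Before a cell copies its genome, the origin recognition complex, the loading factor Cdt1 and the ring-shaped MCM helicase assemble at origins, and geminin holds Cdt1 in check so that each origin fires once. At the fork, a clamp loader places the sliding clamp PCNA, replication protein A coats single strands, ribonucleotide reductase and thymidylate synthase make the nucleotides, and chromatin assembly factors deposit histones behind the fork. Many of these genes are transcribed at the entry to S phase by the activator E2F1 with its partner Dp, and are held down by Rb proteins and the repressor E2F2. The study describes adult flight muscle as relatively post-mitotic.

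The deposited values are log2 values centred on each gene's mean, so the 4 values of a gene sum to 0 and show only how its libraries differ. They hold no expression level and no depth, so the level of a gene, the presence of muscle transcripts and the precision given by sequencing depth could not be read from them. A log2 fold change, below called log2 change, is the value with RU486 minus the value without it in the same genotype. With 1 library per condition there was no replicate check, no SD and no test, and every difference below is between single libraries. In such bulk samples, fewer cells of a type and less RNA per cell cannot be told apart. Mef2 itself had values of -0.38 in MEF2 RNAi +RU486, 0.25 in MEF2 RNAi -RU486, 0.22 in w1118 +RU486 and -0.098 in w1118 -RU486 flies, a fold change of 0.647 with RU486 in MEF2 RNAi thoraces and 1.25 in controls. The bulk of the table moved too: the median log2 change over all genes was -0.38 in MEF2 RNAi thoraces and 0.36 in controls, and a lower value with RU486 in MEF2 RNAi thoraces with a higher one in controls was found for 83.7% of all genes.

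As a group, the 38 genes had a higher median than all genes in MEF2 RNAi thoraces and not in controls. Their median log2 change with RU486 was 0.18 in MEF2 RNAi thoraces, with quartiles of -0.25 and 0.39 and a range of -0.61 to 0.85, against the -0.38 of all genes. In controls it was 0.30, close to the 0.36 of all genes. Of the 38 genes, 23 were higher and 15 lower with RU486 in MEF2 RNAi thoraces, where 1448 of all 13012 genes were higher. In controls 37 of the 38 were higher with it, as were 12113 of all 13012 genes. Only 12 of the 38 were higher there once each library is set level with the median of all genes, a scale taken up further on. On that scale the median log2 change of all genes in controls was 0.0068, near 0 because of how the scale is set. The library medians of the 38 genes were 0.20 in MEF2 RNAi +RU486, 0.0016 in MEF2 RNAi -RU486, 0.0042 in w1118 +RU486 and -0.25 in w1118 -RU486 flies. The MEF2 RNAi +RU486 library thus held the highest median, and it was the highest of the 4 libraries for 20 of the 38 genes, where 3.97% of all genes were highest there. The MEF2 RNAi -RU486 library was highest for 12 genes, the w1118 +RU486 library for 6 and the w1118 -RU486 library for 0. The shares of all genes are not given for these counts, so they cannot tell the 38 genes apart from all genes. The library medians over all genes were 0.19 in MEF2 RNAi -RU486, 0.17 in w1118 +RU486, -0.18 in w1118 -RU486 and -0.18 in MEF2 RNAi +RU486 flies. The w1118 -RU486 library was lowest for 32 of the 38 genes, against 47.4% of all genes. Comparisons that contain the MEF2 RNAi +RU486 library share it, so counts of its highest values and fold changes over other libraries are not separate pieces of evidence.

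**Figure D1:**
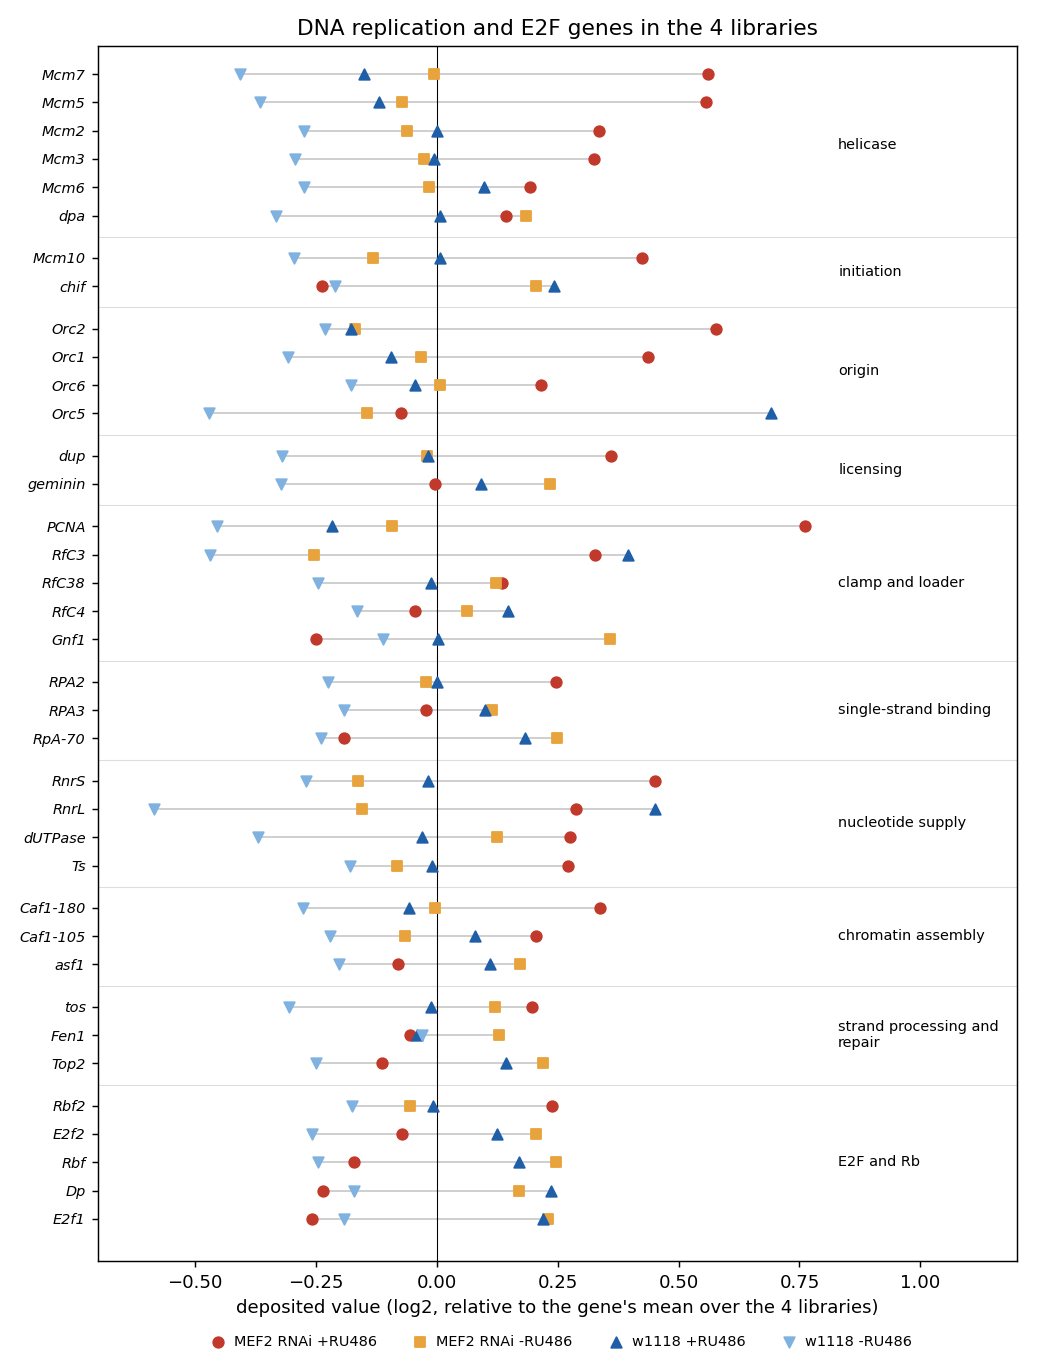
Deposited log2 values of 37 of the 38 genes, relative to each gene's mean over the 4 libraries (x axis), grouped by role. Each symbol is 1 library and the grey line spans the 4 values. The MEF2 RNAi +RU486 circles lie farthest right for 20 genes, most of them helicase, origin and nucleotide genes, whereas for 4 of the 5 E2F and Rb genes they lie left of 0.

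A gene was called higher when its fold change with RU486 was at least 1.5 in MEF2 RNAi thoraces and under 1.5 in controls, and lower when it was at or below 0.65 in MEF2 RNAi thoraces and above 0.65 in controls. By this rule 4 of the 38 genes rose, namely PCNA, Orc2, Mcm5 and RnrS, against 0.576% of all genes, and 0 fell, against 6.96% of all genes. The count of 4 became 0 when the threshold was 2, 0 when the fold change in controls had to be at most 1, and 2 when the ratio of both fold changes had to reach 1.5. PCNA (chromosome arm 2R, 20261754 to 20262883), the sliding clamp that tethers the polymerases, had values of 0.76 in MEF2 RNAi +RU486, -0.092 in MEF2 RNAi -RU486, -0.22 in w1118 +RU486 and -0.45 in w1118 -RU486 flies. Orc2 (3R, 13964885 to 13967075), a core subunit of the origin recognition complex, had values of 0.58 in MEF2 RNAi +RU486, -0.17 in MEF2 RNAi -RU486, -0.18 in w1118 +RU486 and -0.23 in w1118 -RU486 flies. Only the MEF2 RNAi +RU486 library was above 0 for either gene, and the other 3 libraries of Orc2 lay within a narrow band. Mcm5 (3R, 10788524 to 10791150), a subunit of the replicative helicase, had values of 0.56 in MEF2 RNAi +RU486, -0.072 in MEF2 RNAi -RU486, -0.12 in w1118 +RU486 and -0.37 in w1118 -RU486 flies. RnrS (2R, 11983145 to 11985393), the small subunit of ribonucleotide reductase, had values of 0.45 in MEF2 RNAi +RU486, -0.16 in MEF2 RNAi -RU486, -0.017 in w1118 +RU486 and -0.27 in w1118 -RU486 flies. All 4 genes thus had their 1 positive value in the same library. The fold change with RU486 in MEF2 RNAi thoraces was 1.81 for PCNA, 1.68 for Orc2, 1.55 for Mcm5 and 1.53 for RnrS, and in controls it was 1.18, 1.04, 1.19 and 1.19 in the same order of genes. Just under the threshold in MEF2 RNAi thoraces were RfC3 at 1.497, Mcm7 at 1.48 and Mcm10 at 1.47, and the gene nearest to the lower threshold was Gnf1 at 0.656. Coordinates are from the BDGP6 annotation of Ensembl, since the build used by the authors is not given in the sources used here.

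The helicase genes, whose products form the ring that unwinds the template, had log2 changes of -0.042 to 0.63 with RU486 in MEF2 RNAi thoraces and of 0.25 to 0.37 in controls, with a median of 0.37 in MEF2 RNAi thoraces. The MEF2 RNAi +RU486 library was highest for 5 of the 6. Mcm7 (3L, 8891596 to 8894310) had values of 0.56 in MEF2 RNAi +RU486, -0.0048 in MEF2 RNAi -RU486, -0.15 in w1118 +RU486 and -0.41 in w1118 -RU486 flies, a pattern like that of Mcm5. Mcm2 had values of 0.34 in MEF2 RNAi +RU486, -0.062 in MEF2 RNAi -RU486, 0.00067 in w1118 +RU486 and -0.27 in w1118 -RU486 flies. Mcm3 had values of 0.32 in MEF2 RNAi +RU486, -0.026 in MEF2 RNAi -RU486, -0.0066 in w1118 +RU486 and -0.29 in w1118 -RU486 flies. For both Mcm2 and Mcm3 the MEF2 RNAi -RU486 and w1118 +RU486 libraries were nearly level, between the other pair. Mcm6 was less spread, with values of 0.19 in MEF2 RNAi +RU486, -0.017 in MEF2 RNAi -RU486, 0.10 in w1118 +RU486 and -0.27 in w1118 -RU486 flies. The exception was dpa, which encodes the Mcm4 subunit, with values of 0.14 in MEF2 RNAi +RU486, 0.18 in MEF2 RNAi -RU486, 0.0062 in w1118 +RU486 and -0.33 in w1118 -RU486 flies. Its log2 change in MEF2 RNAi thoraces was -0.042, the lowest of the helicase genes, so the subunits of this 1 complex did not share a single pattern.

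Both initiation genes act on the loaded helicase. On the deposited scale they moved in opposite ways in MEF2 RNAi thoraces, whereas in controls both were higher with RU486. On the all-gene scale described further on, the log2 change in MEF2 RNAi thoraces was 0.92 for Mcm10 and -0.077 for chif. Mcm10, a factor that joins the helicase at initiation and binds DNA, had values of 0.42 in MEF2 RNAi +RU486, -0.13 in MEF2 RNAi -RU486, 0.0057 in w1118 +RU486 and -0.30 in w1118 -RU486 flies. The gene chif, which encodes the Dbf4-related activator of the Cdc7 kinase, had values of -0.24 in MEF2 RNAi +RU486, 0.20 in MEF2 RNAi -RU486, 0.24 in w1118 +RU486 and -0.21 in w1118 -RU486 flies. The log2 change of Mcm10 was 0.56 in MEF2 RNAi thoraces and 0.30 in controls, and that of chif was -0.44 in MEF2 RNAi thoraces and 0.45 in controls, close to the pattern of the bulk of the table.

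The origin recognition genes had log2 changes of 0.070 to 0.75 in MEF2 RNAi thoraces, with a median of 0.34, and Orc2 was the only one of the 4 past the threshold there. Orc1, the largest subunit and an ATPase, had values of 0.44 in MEF2 RNAi +RU486, -0.033 in MEF2 RNAi -RU486, -0.10 in w1118 +RU486 and -0.31 in w1118 -RU486 flies. Orc6, the smallest subunit, had values of 0.21 in MEF2 RNAi +RU486, 0.0070 in MEF2 RNAi -RU486, -0.045 in w1118 +RU486 and -0.18 in w1118 -RU486 flies. Orc1, Orc2 and Orc6 thus kept 1 order of libraries, with MEF2 RNAi +RU486 on top and w1118 -RU486 at the bottom. Orc5 (2L, 13829837 to 13831576), another ATP-binding subunit, was different, with values of -0.075 in MEF2 RNAi +RU486, -0.14 in MEF2 RNAi -RU486, 0.69 in w1118 +RU486 and -0.47 in w1118 -RU486 flies. Its fold change with RU486 was 1.05 in MEF2 RNAi thoraces and 2.24 in controls. Of the licensing genes, dup, the fly Cdt1, had values of 0.36 in MEF2 RNAi +RU486, -0.021 in MEF2 RNAi -RU486, -0.018 in w1118 +RU486 and -0.32 in w1118 -RU486 flies. Its inhibitor geminin had values of -0.0038 in MEF2 RNAi +RU486, 0.23 in MEF2 RNAi -RU486, 0.092 in w1118 +RU486 and -0.32 in w1118 -RU486 flies. The log2 change in MEF2 RNAi thoraces was 0.38 for dup and -0.24 for geminin, whereas in controls both were positive, at 0.30 and 0.41.

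The clamp and its loader did not move together. The log2 changes of the 5 genes in MEF2 RNAi thoraces ran from the highest of all 38 genes, 0.85 for PCNA, to the lowest, -0.61 for Gnf1. Gnf1, the large subunit of replication factor C, had values of -0.25 in MEF2 RNAi +RU486, 0.36 in MEF2 RNAi -RU486, 0.0027 in w1118 +RU486 and -0.11 in w1118 -RU486 flies. RfC3 (2L, 10419190 to 10420612), a small subunit of the loader, had values of 0.33 in MEF2 RNAi +RU486, -0.25 in MEF2 RNAi -RU486, 0.40 in w1118 +RU486 and -0.47 in w1118 -RU486 flies. RfC3 was thus high in both RU486 libraries and low in both vehicle libraries. The small subunits RfC4 and RfC38 were near 0 in MEF2 RNAi thoraces, with log2 changes of -0.11 and 0.014 there and of 0.31 and 0.23 in controls. Of the single-strand binding proteins, RPA2 had values of 0.25 in MEF2 RNAi +RU486, -0.022 in MEF2 RNAi -RU486, 0.00088 in w1118 +RU486 and -0.23 in w1118 -RU486 flies. RpA-70, the large subunit that holds the main DNA-binding surface, had values of -0.19 in MEF2 RNAi +RU486, 0.25 in MEF2 RNAi -RU486, 0.18 in w1118 +RU486 and -0.24 in w1118 -RU486 flies. The 3 subunits of this complex had log2 changes of 0.27 for RPA2, -0.14 for RPA3 and -0.44 for RpA-70 in MEF2 RNAi thoraces, and of 0.23, 0.29 and 0.42 in the same order in controls.

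The nucleotide supply genes had the highest median log2 change of the 10 roles in MEF2 RNAi thoraces, 0.40, and all 4 were positive there. RnrL (2L, 10325026 to 10327943), the large subunit of ribonucleotide reductase, had values of 0.29 in MEF2 RNAi +RU486, -0.15 in MEF2 RNAi -RU486, 0.45 in w1118 +RU486 and -0.58 in w1118 -RU486 flies. Its fold change with RU486 was 1.36 in MEF2 RNAi thoraces and 2.05 in controls, so on the deposited scale RnrS passed 1.5 in MEF2 RNAi thoraces only and RnrL in controls only. On the all-gene scale described further on, RnrL passed 1.5 in both, at 1.75 in MEF2 RNAi thoraces and 1.61 in controls. Ts, thymidylate synthase, had values of 0.27 in MEF2 RNAi +RU486, -0.082 in MEF2 RNAi -RU486, -0.011 in w1118 +RU486 and -0.18 in w1118 -RU486 flies. The gene dUTPase, whose product keeps uracil out of DNA, had values of 0.28 in MEF2 RNAi +RU486, 0.12 in MEF2 RNAi -RU486, -0.032 in w1118 +RU486 and -0.37 in w1118 -RU486 flies. Both were highest in the MEF2 RNAi +RU486 library, with log2 changes of 0.35 for Ts and 0.15 for dUTPase in MEF2 RNAi thoraces.

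Among the chromatin assembly genes, the large subunit of chromatin assembly factor 1, listed by RefSeq as CAF1-p180, had values of 0.34 in MEF2 RNAi +RU486, -0.0038 in MEF2 RNAi -RU486, -0.056 in w1118 +RU486 and -0.28 in w1118 -RU486 flies. Caf1-105, the middle subunit, had values of 0.21 in MEF2 RNAi +RU486, -0.065 in MEF2 RNAi -RU486, 0.079 in w1118 +RU486 and -0.22 in w1118 -RU486 flies. Both subunits were highest in the MEF2 RNAi +RU486 library. The histone chaperone asf1, which hands histones to that factor, had values of -0.080 in MEF2 RNAi +RU486, 0.17 in MEF2 RNAi -RU486, 0.11 in w1118 +RU486 and -0.20 in w1118 -RU486 flies. The strand processing and repair genes had a median log2 change of -0.26 in MEF2 RNAi thoraces, above the -0.38 of all genes, and did not share the pattern of the helicase genes. Top2, the topoisomerase that untangles duplexes, and Fen1, the nuclease that trims Okazaki fragments, had log2 changes of -0.33 and -0.18 in MEF2 RNAi thoraces. The exonuclease gene tos was at 0.077, and it was the only one of the 4 that was highest in MEF2 RNAi +RU486 flies. Fen1 was also the only one of the 38 genes that was lower with RU486 in controls, by a log2 change of -0.011.

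The genes that encode the E2F and Rb proteins themselves were not among those that rose. E2f1 (3R, 21620304 to 21660871), the activator, had values of -0.26 in MEF2 RNAi +RU486, 0.23 in MEF2 RNAi -RU486, 0.22 in w1118 +RU486 and -0.19 in w1118 -RU486 flies. Its partner Dp had values of -0.23 in MEF2 RNAi +RU486, 0.17 in MEF2 RNAi -RU486, 0.24 in w1118 +RU486 and -0.17 in w1118 -RU486 flies. Both were lowest in the MEF2 RNAi +RU486 library, in the opposite position to PCNA and Orc2. E2f2 (2L, 21154293 to 21156749), the repressor, had values of -0.072 in MEF2 RNAi +RU486, 0.21 in MEF2 RNAi -RU486, 0.12 in w1118 +RU486 and -0.26 in w1118 -RU486 flies. Rbf (X, 797090 to 801479), the Rb protein that binds both E2F proteins, had values of -0.17 in MEF2 RNAi +RU486, 0.25 in MEF2 RNAi -RU486, 0.17 in w1118 +RU486 and -0.25 in w1118 -RU486 flies. These 4 genes had log2 changes of -0.49 for E2f1, -0.42 for Rbf, -0.40 for Dp and -0.28 for E2f2 in MEF2 RNAi thoraces, around the median of all genes, and of 0.38 to 0.42 in controls. Rbf2 (3R, 15965446 to 15968138), the second Rb protein, which acts with E2f2, stood with the replication genes, with values of 0.24 in MEF2 RNAi +RU486, -0.055 in MEF2 RNAi -RU486, -0.0072 in w1118 +RU486 and -0.18 in w1118 -RU486 flies. Its log2 change was 0.29 in MEF2 RNAi thoraces and 0.17 in controls.

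In controls, which fed on RU486 without the RNAi, 3 of the 38 genes rose by at least 1.5 times, Orc5 at 2.24, RnrL at 2.05 and RfC3 at 1.82, against 6.54% of all genes. By the rule above, a gene called higher in MEF2 RNAi thoraces could not be among them. The difference between genotypes in the log2 change was positive for PCNA at 0.62, Orc2 at 0.69, Mcm5 at 0.38 and RnrS at 0.36, and negative for Orc5 at -1.09, RnrL at -0.59 and RfC3 at -0.28, but it turned positive on the all-gene scale for RnrL at 0.12 and RfC3 at 0.43 and stayed negative for Orc5 at -0.38. Over all 38 genes its median was -0.20, against -0.78 for all genes. Lower values with RU486 in MEF2 RNAi thoraces and higher values in controls were found for 14 of the 38 genes, against 83.7% of all genes. That difference between genotypes was not tested for any gene.

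**Figure D2:**
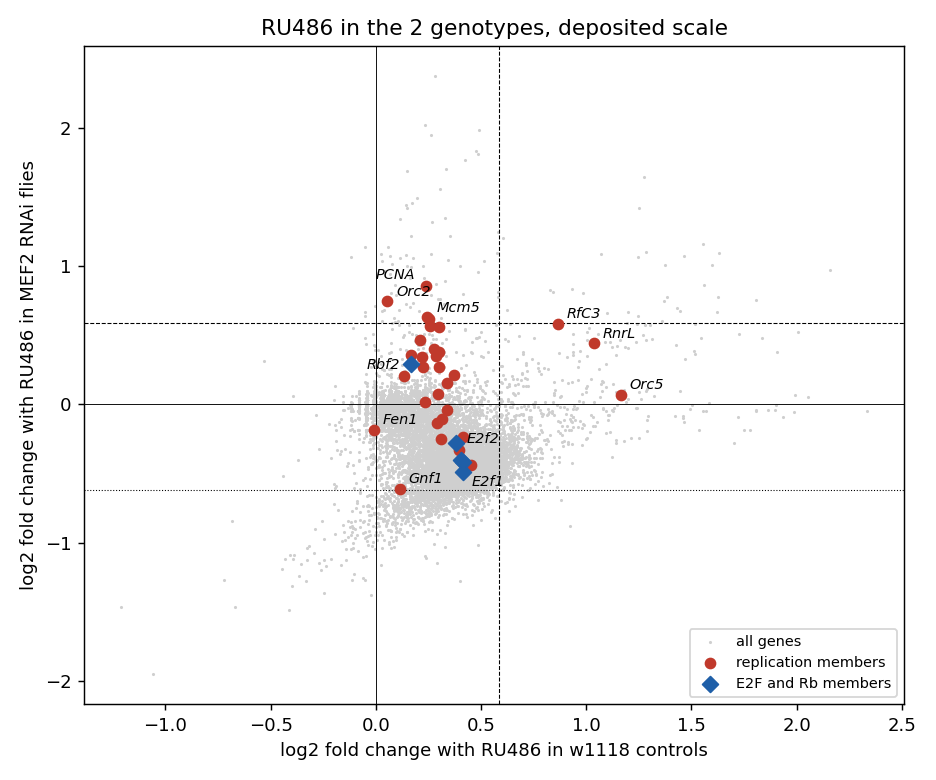
Log2 change with RU486 in MEF2 RNAi thoraces (y axis) against that in w1118 controls (x axis), on the deposited scale. Grey points are all genes, red circles the replication genes but 1 and blue diamonds the 5 E2F and Rb genes, with dashed lines at a fold change of 1.5 and a dotted line at 0.65. PCNA, Orc2, Mcm5 and RnrS lie above the horizontal dashed line and left of the vertical one, Orc5, RnrL and RfC3 lie right of the vertical one, and E2f1, E2f2, Dp and Rbf lie within the cloud of all genes.

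Both genotypes can also be compared at 1 feeding state. Among RU486-fed flies, 4 of the 38 genes were at least 1.5 times higher in MEF2 RNAi than in w1118 flies, PCNA at 1.97, Orc2 at 1.69, Mcm7 at 1.64 and Mcm5 at 1.60, against 0.599% of all genes, and Orc5 was lower at 0.588. This comparison shares the MEF2 RNAi +RU486 library with the one above. Among vehicle-fed flies, where the driver is not switched on by RU486, 0 of the 38 genes were at least 1.5 times higher in MEF2 RNAi than in w1118 flies, against 6% of all genes. The ratios there were 1.28 for PCNA, 1.04 for Orc2, 1.32 for Mcm7 and 1.23 for Mcm5, so the w1118 -RU486 library was the lower of the vehicle pair for each on the deposited scale. On the all-gene scale the log2 differences of that pair were -0.0047 for PCNA, -0.30 for Orc2, 0.034 for Mcm7 and -0.073 for Mcm5, so the direction turned for 3 of the 4. The median log2 difference between the genotypes over the 38 genes was 0.13 in RU486-fed flies, against -0.36 for all genes, and 0.32 in vehicle-fed flies, against 0.38 for all genes. On the all-gene scale the vehicle-fed median of the 38 genes was -0.050.

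Since all libraries differ in the bulk of their genes, the same values were also read after the median over all genes had been subtracted from its library, here called the all-gene scale. This moved every log2 change up by 0.36 in MEF2 RNAi thoraces and down by 0.35 in controls. On it the median of the 38 genes was 0.54 in MEF2 RNAi thoraces and -0.048 in controls, and 31 genes were positive and 7 negative in MEF2 RNAi thoraces. The median log2 change of all genes on this scale was -0.012 in MEF2 RNAi thoraces and 0.0068 in controls, near 0 because of how the scale is set. At least 1.5 times higher in MEF2 RNAi thoraces and not in controls were 16 of the 38 genes, against 1.64% of all genes: Mcm2, Mcm3, Mcm5, Mcm7, Mcm10, Orc1, Orc2, dup, PCNA, RfC3, RPA2, RnrS, Ts, CAF1-p180, Caf1-105 and Rbf2. At or below 0.65 were 0 genes, against 0.3% of all genes. The MEF2 RNAi +RU486 library was highest for 29 of the 38 genes on this scale, against 22.7% of all genes. In controls the fold change was 1.76 for Orc5, 1.61 for RnrL and 1.43 for RfC3 on this scale, so RfC3 was under 1.5 there. The fold changes with RU486 in MEF2 RNAi thoraces on this scale were 2.33 for PCNA, 2.16 for Orc2, 1.99 for Mcm5 and 1.97 for RnrS, while E2f1 was at 0.919, Rbf at 0.963, Dp at 0.973 and E2f2 at 1.06. For 8 genes the sign of the MEF2 RNAi fold change was negative on the deposited scale and positive on the all-gene scale: dpa, geminin, RfC4, RPA3, asf1, Fen1, Top2 and E2f2. Mef2 had a log2 change of -0.26 on this scale, and so was below the median of all genes but no longer past 0.65. Which scale is nearer to the RNA content of the thoraces cannot be told from centred values.

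The rank of a gene's fold change within its own pair of libraries does not depend on that scale. Of the 38 genes, 22 were among the highest 5% of all genes by the log2 change in MEF2 RNAi thoraces, where the background was 5.06% because of ties, and 3 were among the highest 5% in controls, where it was 5%. The median gene of the 38 stood 2.50% from the top of all genes in MEF2 RNAi thoraces and 59.7% from the top in controls. Among 13012 genes PCNA ranked 60 in MEF2 RNAi thoraces and 8778 in controls, Orc2 ranked 76 and 11387, Mcm5 ranked 96 and 8654, and RnrS ranked 99 and 8537. The genes highest in controls were high in both, RfC3 ranking 106 in MEF2 RNAi thoraces and 200 in controls, and RnrL ranking 170 and 121, while Orc5 ranked 613 and 83. At the other end, E2f2 ranked 4940, Dp 7148, Rbf 7509, E2f1 9575 and Gnf1 11990 in MEF2 RNAi thoraces. The cut at 5% thus set 22 genes apart from 16 spread over the rest of the table. A place within the cut could go with a very small change. The genes tos and Orc5, at ranks 596 and 613, had log2 changes of 0.077 and 0.070 in MEF2 RNAi thoraces. The rank measure was chosen after the values had been seen.

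**Figure D3:**
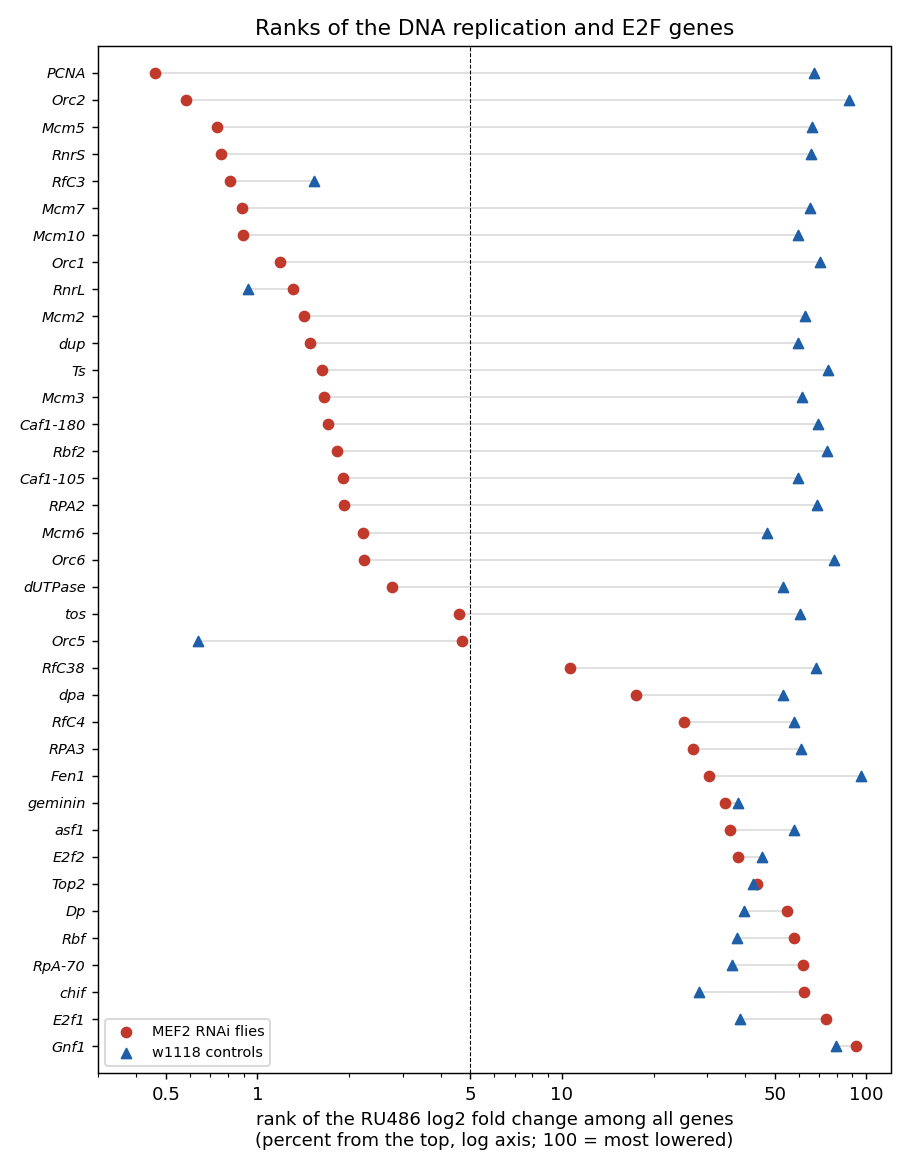
Rank of the log2 change with RU486 among all 13012 genes, as percent from the top on a log axis (x axis), for 37 of the 38 genes (y axis). Red circles are MEF2 RNAi thoraces and blue triangles w1118 controls, and the dashed line marks 5%. The circles of 22 genes lie left of the line, and the triangles of only Orc5, RnrL and RfC3 do.

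A further list held other replication genes that were not among the 38, of which 26 of 27 had a row: subunits of the polymerases, the factors that switch on the helicase, loading factors and fork proteins. Their median log2 change was -0.011 in MEF2 RNAi thoraces and 0.28 in controls. Of these 26, 0 rose (0.576% of all genes did), 1 fell (6.96%), 11 were highest in the MEF2 RNAi +RU486 library (3.97%) and 10 were among the highest 5% by rank (5.06%). Those highest in that library included the DNA polymerase alpha subunits DNApol-alpha180, DNApol-alpha73 and DNApol-alpha60, the loading factor Cdc6 and the checkpoint adaptor Claspin. The 1 gene that fell was Cdc7, the kinase that starts firing together with chif, with values of -0.32 in MEF2 RNAi +RU486, 0.31 in MEF2 RNAi -RU486, 0.17 in w1118 +RU486 and -0.16 in w1118 -RU486 flies and fold changes of 0.647 in MEF2 RNAi thoraces and 1.26 in controls. The scaffold protein gene mus101, the fly TopBP1, was the only one of the 26 past 1.5 in controls, against 6.54% of all genes. It had values of 0.079 in MEF2 RNAi +RU486, -0.39 in MEF2 RNAi -RU486, 0.73 in w1118 +RU486 and -0.43 in w1118 -RU486 flies. On the all-gene scale Cdc7 was above 0.65, and 0 of the 26 genes fell, against 0.3% of all genes. A count of 0 beside a share this small cannot tell the list apart from all genes. On that scale 5 rose, against 1.64% of all genes: the 3 polymerase alpha subunits, DNApol-epsilon58 and Claspin. The order of the mus101 values is the one seen in Orc5, with the w1118 +RU486 library far above the rest. The GINS subunits Psf3 and Psf2 and the topoisomerase Top1 had log2 changes of -0.49, -0.32 and -0.48 in MEF2 RNAi thoraces, near the median of all genes, and DNApol-delta was at -0.21.

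Of 11 genes that act on E2F and Rb, 1 rose in MEF2 RNAi thoraces (0.576% of all genes did) and 1 fell (6.96%), and 10 were lower with RU486 there, as were 11564 of all 13012 genes. The gene that rose was CycE, the cyclin that with Cdk2 inactivates Rb proteins at the entry to S phase, with values of 0.79 in MEF2 RNAi +RU486, -0.20 in MEF2 RNAi -RU486, -0.21 in w1118 +RU486 and -0.38 in w1118 -RU486 flies. Its fold change was 1.99 in MEF2 RNAi thoraces and 1.12 in controls, and its 4 values had the same order as those of PCNA. The dREAM complex is an Rb-containing complex that represses many of these genes. Its subunit lin-52 fell, with values of -0.26 in MEF2 RNAi +RU486, 0.40 in MEF2 RNAi -RU486, 0.051 in w1118 +RU486 and -0.19 in w1118 -RU486 flies, and a fold change of 0.633 in MEF2 RNAi thoraces, but it was above 0.65 on the all-gene scale. The dREAM members mip130, Myb, Caf1-55 and mip120 had log2 changes of -0.47, -0.35, -0.36 and -0.34 in MEF2 RNAi thoraces, and Cdk4, which pairs with CycD, was at -0.36. The median of the 11 genes was -0.35 in MEF2 RNAi thoraces and 0.35 in controls, near that of all genes in both.

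Most germline markers moved with the replication genes that rose. Of 19 germline markers with a row, 15 were highest in the MEF2 RNAi +RU486 library, against 3.97% of all genes. The other 4, tud, pgc, gcl and bru1, were highest in the MEF2 RNAi -RU486 library. Their log2 changes in MEF2 RNAi thoraces were -0.56, -0.027, -0.36 and -0.90 in that order, and all 4 were higher with RU486 in controls. With RU486 in MEF2 RNAi thoraces 8 rose, vas, nos, osk, piwi, AGO3, krimp, otu and zpg, against 0.576% of all genes, and 1 fell, bru1, against 6.96%. On the all-gene scale 13 rose, against 1.64% of all genes, and 0 fell. The median log2 change of the 19 markers was 0.47 in MEF2 RNAi thoraces and 0.19 in controls. Their library medians were 0.28 in MEF2 RNAi +RU486, -0.065 in MEF2 RNAi -RU486, -0.040 in w1118 +RU486 and -0.25 in w1118 -RU486 flies, the same order of extremes as for the 38 genes. The posterior determinant osk had values of 1.38 in MEF2 RNAi +RU486, -0.61 in MEF2 RNAi -RU486, -0.14 in w1118 +RU486 and -0.63 in w1118 -RU486 flies. The translational repressor nos had values of 1.06 in MEF2 RNAi +RU486, -0.39 in MEF2 RNAi -RU486, -0.25 in w1118 +RU486 and -0.42 in w1118 -RU486 flies. The helicase gene vas had values of 0.55 in MEF2 RNAi +RU486, -0.048 in MEF2 RNAi -RU486, -0.20 in w1118 +RU486 and -0.29 in w1118 -RU486 flies, close to those of Mcm5 and Mcm7. The germline is a dividing tissue that stores replication transcripts in the egg. The part of these germline transcripts in the higher values of the replication genes was not tested, and since the table gives no levels, no summed level of either list can be given. Of 16 eggshell and follicle markers, 0 were highest in the MEF2 RNAi +RU486 library and 0 rose, against 3.97% and 0.576% of all genes. With shares this small, these counts cannot tell so short a list apart from all genes. Their median log2 change was 0.032 in MEF2 RNAi thoraces, against -0.38 for all genes, and 0.19 in controls, against 0.36. The library medians of the 16 were -0.020 in MEF2 RNAi +RU486, -0.043 in MEF2 RNAi -RU486, 0.11 in w1118 +RU486 and -0.071 in w1118 -RU486 flies. Unlike the germline markers, they thus had their highest median in w1118 +RU486 flies, where that of all genes was 0.17. By rank in MEF2 RNAi thoraces 6 of the 16 were among the highest 5%, against 5.06% of all genes. For 5 of the 16 no value lay farther than 0.1 from 0, as for 16.1% of all genes.

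Markers of the tissues of the thorax had lower medians than the 38 genes in MEF2 RNAi thoraces. The median log2 change of 14 muscle genes was -0.52 in MEF2 RNAi thoraces and 0.53 in controls, and 0 were highest in the MEF2 RNAi +RU486 library. Of the 14, 3 fell, Act57B, sls and bt, against 6.96% of all genes. On the all-gene scale 0 of the 14 fell, against 0.3% of all genes. Of 7 fat body genes, Lsp2 and Lsp1beta fell on both scales, against 6.96% of all genes on the deposited scale and 0.3% on the all-gene scale. In MEF2 RNAi thoraces and in controls the medians were -0.60 and 0.42 for 7 fat body genes, -0.15 and 0.66 for 8 gut genes, -0.49 and 0.36 for 6 neuronal genes, and -0.41 and 0.47 for 6 hemocyte genes. Of each of these lists too, 0 genes were highest in the MEF2 RNAi +RU486 library. Since only 3.97% of all genes were highest there, a count of 0 cannot tell lists this short apart from all genes. On the all-gene scale the medians in MEF2 RNAi thoraces and in controls were -0.15 and 0.19 for muscle, 0.22 and 0.31 for gut and 0.84 and -0.16 for germline markers, so the sign turned for gut in MEF2 RNAi thoraces and for germline markers in controls. For the 86 cytosolic ribosomal protein genes the medians on the deposited scale were -0.47 and 0.49. The part of these shifts in the values of the 38 genes was not tested.

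**Figure D4:**
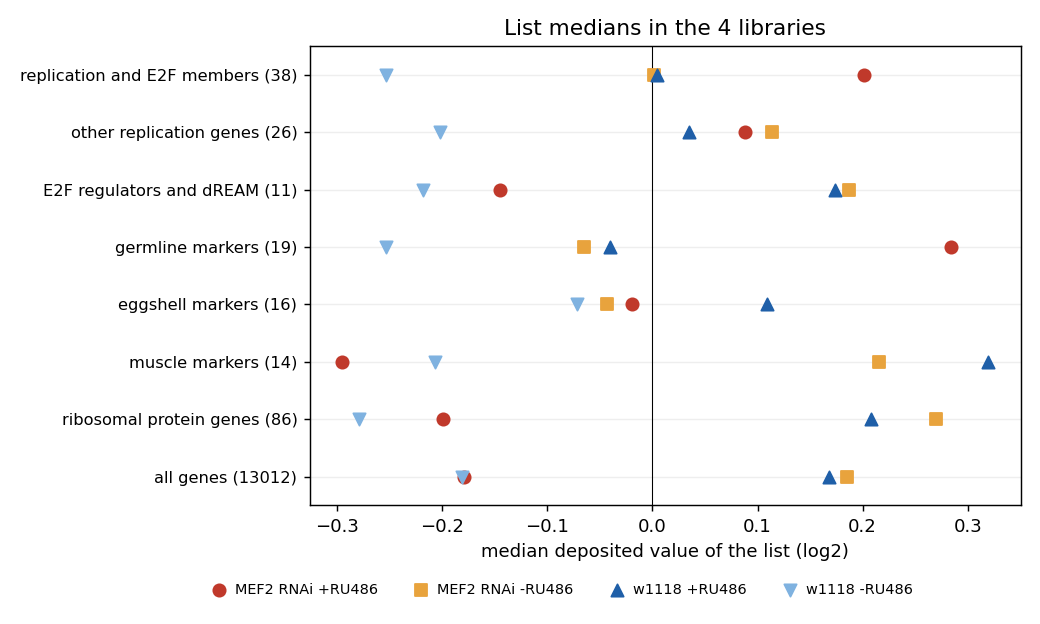
Median deposited log2 value (x axis) of each gene list (y axis, with the number of genes) in the 4 libraries. The MEF2 RNAi +RU486 circle lies at 0.20 for the 38 replication and E2F genes and at 0.28 for the germline markers, right of the other 3 libraries in both lists, and at -0.30 for the muscle markers and -0.18 for all genes.

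The 38 genes lay on all large chromosome arms, 12 on 2L, 10 on 2R, 3 on 3L, 8 on 3R and 5 on X, and neighbours among them differed. RpA-70 (3R, 8262120 to 8264451) and Mcm2 (3R, 8264970 to 8267924) are transcribed away from each other with 518 bases between them, yet their log2 changes in MEF2 RNAi thoraces were -0.44 and 0.40. E2f2 and Mcm10 are 23.2 kb apart on 2L and had -0.28 and 0.56, and dpa and Orc1 are 22.3 kb apart on 2R and had -0.042 and 0.47. In the annotation 20 of the 38 genes overlap another gene, and the kit was stranded but whether counting used the strand is not given in the sources used here. PCNA, Mcm5, RnrS, RfC3 and RnrL overlap none. All 10199 bases of chif are shared with Hyls1 on the same strand, so reads of the 2 cannot be told apart by strand, and all 2445 bases of tos lie within CG31751 on the other strand, which had a log2 change of -0.39 in MEF2 RNAi thoraces. Orc2 overlaps rdx by 15 bases, and rdx had a log2 change of -0.24 in MEF2 RNAi thoraces. Mcm7 overlaps the antisense RNA CR45871 by 2205 bases, and that RNA had values of 0.52 in MEF2 RNAi +RU486, 0.022 in MEF2 RNAi -RU486, -0.18 in w1118 +RU486 and -0.37 in w1118 -RU486 flies, so reads of the pair may not be separate. The gene dUTPase is overlapped along all of its 824 bases by the antisense RNA CR45778, and both have the same 4 values, so the values of dUTPase cannot be assigned to 1 of them.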

How the data were processed

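RNA was taken from pooled thoraces, and the labels give a stranded total RNA kit. The deposited table gives 1 log2 value per library for each of 13012 genes, centred by the authors on the mean of the gene, so that its 4 values sum to 0. Columns were matched to samples by title. The aligner, counter, genome build, annotation and normalization are not given in the sources used here. Values near 0 in all libraries were common: 16.1% of genes had none farther than 0.1 from 0. Depth is unknown.

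A fold change is 2 raised to the difference between deposited log2 values. The thresholds of 1.5 and 0.65 are those of the study, whose rule also asked that the gene not move the same way in controls. That was read here as controls not passing the same threshold, which allows a smaller rise in controls. The same values were also read after subtracting from each library its median over all genes or over 86 cytosolic ribosomal protein genes, over other libraries, with stricter thresholds, and by rank, which was added after the data were seen. Genes given with all 4 values are those past 1.5 or at or below 0.65 in either genotype on the deposited or all-gene scale, the 5 E2F and Rb genes, the lowest gene of each role, up to 6 genes of other lists by the difference between genotypes, and Mef2. Others given so were chosen after their values were seen. The members and lists were chosen with earlier results of these data known. The gene lists were other replication genes, E2F regulators and dREAM subunits, and markers of germline, eggshell, muscle, fat body, gut, neurons and hemocytes. Of the 38 genes, 1 entered every count and median but is not reported here by itself. Some symbols were matched by synonym or letter case. Gene positions are from BDGP6, Ensembl release 115. A planned search for promoter motifs was not run, since no sequence was used here. Python 3.11.15, numpy 2.4.6, pandas 2.3.3 and matplotlib 3.10.9 were used.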

Additional observations from a re-analysis of the deposited data

Results flagged for a closer look

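On the deposited scale 14 of the 38 genes had a lower value with RU486 in MEF2 RNAi thoraces and a higher one in controls, with 1 library each. Their difference between genotypes, the log2 change with RU486 in MEF2 RNAi thoraces minus that in controls, is given here for 13 of them and was -0.90 for E2f1, -0.89 for chif, -0.86 for RpA-70, -0.83 for Rbf, -0.81 for Dp, -0.73 for Top2, -0.72 for Gnf1, -0.66 for E2f2, -0.65 for geminin, -0.56 for asf1, -0.43 for RPA3, -0.42 for RfC4 and -0.38 for dpa. The difference was not tested, and the same signs were found for 83.7% of all genes, whose median difference was -0.78.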

How the results depend on the processing

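After subtraction of the all-gene median from each library, the 38 genes had a median log2 change of 0.54 in MEF2 RNAi thoraces and of -0.048 in controls, where the sign changed, and the median difference between genotypes was 0.51 in place of -0.20, also a change of sign. Centred on the ribosomal protein genes, these values were 0.65, -0.19 and 0.75. The number of genes called higher, 4 as reported, was then 16 (1.64% of all genes) and 20 (2.95%). It was 0 with a threshold of 2 (0.284%), 0 where the control fold change had to be at most 1 (0.0384%), 2 where the ratio of both fold changes had to reach 1.5 (0.392%), and 22 by rank among the highest 5% (5.06%). Over the mean of the other 3 libraries the median log2 change was 0.27, and over the w1118 +RU486 library it was 0.13, where 1 gene, Orc5, was called lower in place of 0 (3.87% of all genes). The number of genes highest in the MEF2 RNAi +RU486 library was 29 on either other scale, against 20 as reported, with 22.7% of all genes on the all-gene scale and 18% on the ribosomal scale.

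No paired analysis was possible because there was 1 library per condition. Leaving out a library would remove a condition and was not run. Depth is unknown, so no limit of detection can be given.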
